A study of Mus musculus with 2 samples.

Results

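Prg4, Cilp, Anxa8, Sod3 and Clu, 5 of the 33696 genes listed for both libraries, were described in single-cell RNA sequencing of amputated mouse digits. The genes were found by their symbols and were picked with earlier results of these data known, their values in fibroblast-like cells included. Their differences between the libraries are therefore a description, and no test was made. Both libraries came from neonatal ICR mice whose hindlimb digits 2 and 4 had been cut through the P2 bone, the middle phalanx, at postnatal day 3. At day 7 the wound received a bead that carried either FGF8 (500 ng/µl) or, as the control, 0.1% BSA, and at day 8, 24 h after the bead, cells were freed from the tissue beyond the stump with the epithelium taken off. Each library held the pooled cells of 20 digits from 5 mice of both sexes, and the digits were not sorted by whether a joint would have formed. With 1 library per treatment, the effects of FGF8, of the animals, of the dissection and of the library cannot be told apart. The intervals given below are 95% intervals that cover counting error only.

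The inner surface of a joint is covered by a thin cell layer, made of the superficial chondrocytes of the articular cartilage and of the fibroblast-like cells of the synovial lining. These cells secrete lubricants and matrix proteins into the joint fluid, and they are exposed to shear and to reactive oxygen species. Prg4 encodes lubricin, the mucin-like boundary lubricant of joint and tendon surfaces. Sod3 encodes the extracellular superoxide dismutase, which binds to matrix and removes superoxide outside the cell, and Anxa8 encodes an annexin, a calcium-dependent protein that binds phospholipid membranes. Cilp encodes the cartilage intermediate layer protein, a secreted matrix glycoprotein that binds TGF-β1, and Clu encodes clusterin, a secreted chaperone.

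On GRCm39, Prg4 (ENSMUSG00000006014) spans chr1:150325163-150342009 on the minus strand. The other genes lie on the plus strand: Sod3 (ENSMUSG00000072941) at chr5:52521070-52528883, Cilp (ENSMUSG00000042254) at chr9:65172200-65187888, Anxa8 (ENSMUSG00000021950) at chr14:33807936-33822528 and Clu (ENSMUSG00000022037) at chr14:66190200-66218999. The table of RefSeq promoters (GRCm38.p6) held Cilp and Anxa8 of these genes, while Prg4, Sod3 and Clu had no entry. The 250 bases before the Anxa8 start are shown because Anxa8, of the other 4 genes, was found most often in the cells that held Prg4. The stretch matched GRCm39 once, at chr14:33807686-33807935 on the plus strand, and ended directly before the annotated start of the gene.
Anxa8 promoter: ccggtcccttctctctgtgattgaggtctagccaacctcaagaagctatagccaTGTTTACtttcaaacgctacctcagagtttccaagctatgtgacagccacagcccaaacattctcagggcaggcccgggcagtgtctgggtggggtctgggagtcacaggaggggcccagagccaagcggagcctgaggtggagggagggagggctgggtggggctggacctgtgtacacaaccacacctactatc
The capitals mark TGTTTAC, 196 bases before the start, which is the forkhead (FOXO) motif GTAAACA read on the other strand. Of the 32851 promoters in the table, 3.17% held this motif in the same window on either strand. The AP-1 motif TGANTCA, the CRE motif TGACGTCA, the TATA motif TATAAA and the ETS motif CCGGAAG were searched on both strands too, and their letters were not in this window. They were found in 6.75%, 1.55%, 12.4% and 6.91% of all promoters.

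The FGF8 library held 124889213 UMIs (unique molecular identifiers, which count each captured transcript once) in 7249 barcodes, and the BSA library held 67739460 UMIs in 3703 barcodes. The filters on cells left 6715 FGF8 and 3252 BSA cells, of which 3280 and 1665 fell in the cluster called fibroblast-like from its markers. Its cells had median UMI counts of 18756 (FGF8) and 20412 (BSA). The summed level of its 6 fibroblast markers was lower in FGF8 (16779 CPM) than in BSA (31295 CPM). None of these markers was at 0 in either library. The same held for the markers of nearly every other type in these pooled cells, so this says nothing about identity. CPM stands for the UMIs of a gene per 1e+06 UMIs of the cells compared. The sexes were not balanced: of the kept cells that could be called by sex-linked genes, 24.6% were female in FGF8 and 79.3% in BSA. Among kept cells, 4 barcodes occurred in both libraries.

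Prg4 had by far the largest difference of these genes in fibroblast-like cells. Its level was 2029 CPM in FGF8 (141672 UMIs) and 265 CPM in BSA (9385 UMIs), a 7.65-fold difference and a log2 ratio of 2.93 (2.90 to 2.97). This placed Prg4 at rank 53 by log2 ratio among the 20052 genes with at least 10 UMIs. Sod3 followed with 82.6 CPM in FGF8 and 37.1 CPM in BSA, a log2 ratio of 1.15 (1.07 to 1.24) and rank 1000. The other genes had smaller ratios, or one of the other sign. Anxa8 stood at 136 against 121 CPM (log2 ratio 0.17, 0.11 to 0.22), Cilp at 37.9 against 33.9 CPM (0.16, 0.06 to 0.26), and Clu at 10.1 against 13.6 CPM (-0.43, -0.60 to -0.26). The Cilp ratio moved with the processing, and was 0.73 and 0.82 after thinning each cell to 2000 and 5000 UMIs and 0.68 with equal weight of cells. Thus 2 of the 5 genes had a log2 ratio above 1, where 6.58% of all genes did, and none had one below -1, where 5.08% did. Nothing is read from these shares, since the genes were chosen by this contrast. Over all genes the median log2 ratio was -0.07.

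Cells were not alike within either library, and a small part of them held most of the lubricin transcripts. In FGF8, 79 of 3280 fibroblast-like cells held 50% of the Prg4 UMIs, and the top 10% of cells held 90.7% of them. In BSA, 6 of 1665 cells held 50%, and the top 10% held 99.1%. The median cell with any Prg4 had 2 UMIs in FGF8 and 4 in BSA, while the highest single cells had 2857 and 2134 UMIs. That BSA cell alone weighed on the comparison: without the cell with most Prg4 UMIs in each library the log2 ratio was 3.28. Cells with at least 10 Prg4 UMIs made up 18.6% of fibroblast-like cells in FGF8 and 4.86% in BSA, and those with at least 100 UMIs were 318 and 20 cells. The UMIs of Anxa8 and Sod3 were spread more widely, with 61.4% and 58.5% in the top 10% of FGF8 cells, and those of Cilp were held by few cells (91.4%). This share also depends on how sparse a gene is, so it does not compare Cilp with Prg4. Cilp had a UMI in only 538 of the 3280 FGF8 cells, and for the still sparser Clu the share was 100%.

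**Figure D1:**
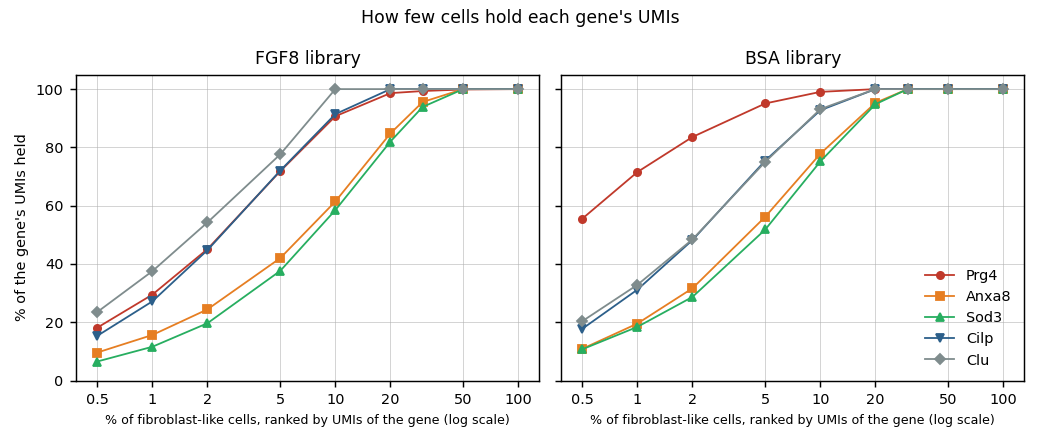
Share of each gene's UMIs (%, vertical axis) held by the fibroblast-like cells that rank highest for that gene (% of cells, log scale), in the FGF8 library (left) and the BSA library (right). The top 1% of cells held 29.5% of the Prg4 UMIs in FGF8 and 71.6% in BSA, while the lines of Anxa8 and Sod3 rise more slowly.

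Fibroblast-like cells were divided into 7 subclusters on variable genes that excluded these 5 genes, the listed genes and the sex-linked genes. Also excluded were the genes that the authors list as higher or lower in FGF8 fibroblasts. Subcluster 0, led by Prg4, Mmp3 and the histone gene H1f5, held 29.5% of the cells in FGF8 and 15.2% in BSA. It also held most of the lubricin: 93.1% of the Prg4 UMIs of all kept FGF8 cells and 86.9% of those in BSA. Within it the Prg4 level was 3997 CPM in FGF8 and 1059 CPM in BSA, a log2 ratio of 1.92 (1.88 to 1.95). Without the cell with most Prg4 UMIs in each library this ratio was 2.30 (2.27 to 2.34). The cells of this subcluster ranged widely, with a median of 4.13 Prg4 UMIs per 10000 UMIs and a 90th percentile of 122 in FGF8, against a median of 0 and a 90th percentile of 20.6 in BSA. Subcluster 2, led by Fmod, Kcnma1, Comp and Mgp and highest in osteoblast and tenocyte markers, came next among the subclusters with median depths above 10000 UMIs. Its Prg4 level was 407 CPM in FGF8 and 103 CPM in BSA. Subcluster 4, led by Lars2, stood at 511 and 35.8 CPM, but its cells had median UMI counts of only 2605 and 3153. The name fibroblast-like belongs to the whole cluster, and the fibroblast marker fold of subcluster 0 was below 0, at -1.37. The tenocyte and osteoblast folds of subcluster 0 were below 0 too, at -0.82 and -2.86, and its chondrocyte fold was 0.11. With types called cell by cell, fibroblast-called cells of the cluster held 11400 of its 141672 FGF8 Prg4 UMIs (362 CPM). Tenocyte-called cells of the cluster held 52356 (3580 CPM), and cells without a type call held 19006 (2911 CPM). Osteoblast-called cells held 3990 (704 CPM), and cells called as other types held the rest. The tenocyte markers include Thbs4, which was itself higher in FGF8 (451 and 177 CPM).

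**Figure D2:**
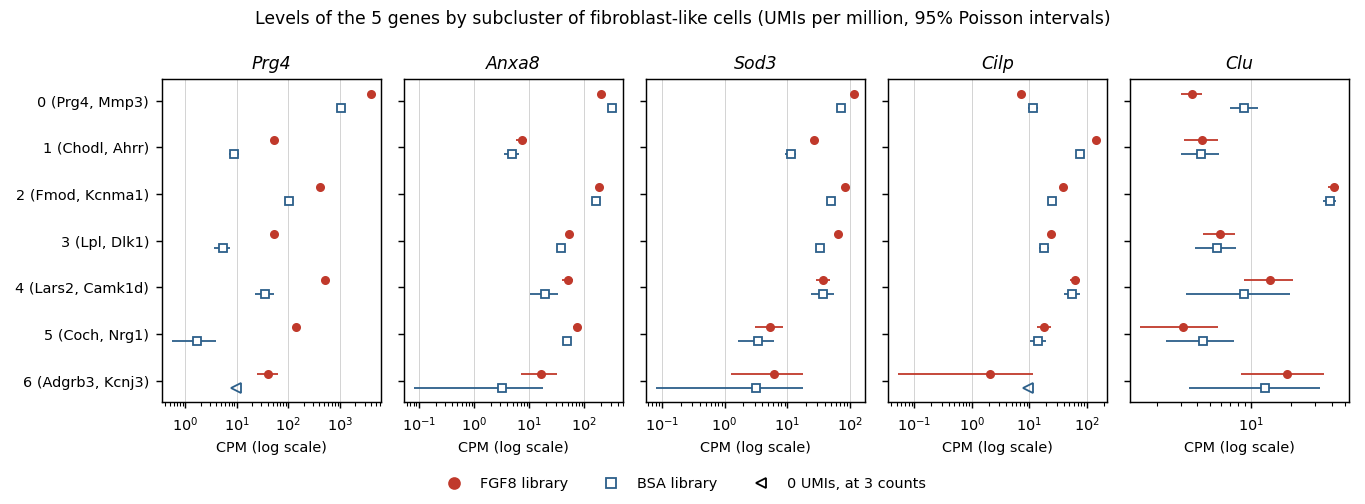
Level of each gene (CPM, log scale) in the 7 subclusters of fibroblast-like cells, named by their first leading genes, for the FGF8 library (filled circles) and the BSA library (open squares), with 95% Poisson intervals, and with arrowheads at the level of 3 counts where no UMI was found. Prg4 and Sod3 were highest in subcluster 0, Cilp in subcluster 1 and Clu in subcluster 2.

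The Prg4 found in blood cells set a floor under the Prg4 values, and this floor was higher in FGF8. Blood cells were taken to lack lubricin. Yet the level in erythroid-like cells was 102 CPM in FGF8 against 2.07 CPM in BSA, macrophage-like cells 112 and 10.4 CPM, and neutrophil-like cells 161 and 8.22 CPM. Per cell these came to 0.768, 1.28 and 0.503 Prg4 UMIs in FGF8, where fibroblast-like cells had 43.2. At least 10 Prg4 UMIs were held by 3 erythroid-like, 4 macrophage-like and 1 neutrophil-like cells in FGF8. Whether these UMIs came from free RNA, from pairs of cells or from the cells themselves was not tested. Subclusters 1, 3 and 6 had 51.7, 52.9 and 41.2 CPM in FGF8, below all 3 blood cell types, and subcluster 5 had 140 CPM. The Prg4 of subclusters 1, 3 and 6 is read as background, and their higher FGF8 values are not read as a difference between treatments. Subcluster 5 lay above erythroid-like and macrophage-like but below neutrophil-like cells in level, and had 1.89 Prg4 UMIs per cell in FGF8. Fewer than 1% of the cells of subclusters 1, 3, 5 and 6 had at least 10 Prg4 UMIs in either library, against 52.2% (FGF8) and 20.6% (BSA) in subcluster 0 and 16.1% and 7.89% in subcluster 2. In subcluster 4, despite its low depth, 5.21% of 384 FGF8 cells and 0% of 154 BSA cells had as many. This cut of 10 UMIs was not adjusted for depth. In FGF8 the median depth was 34877 UMIs in subcluster 0 and 20424 in subcluster 2. It was 14276, 19065, 11899.5 and 8023 UMIs in subclusters 1, 3, 5 and 6.

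Counting any cell with a single Prg4 UMI gave larger shares that depended on depth. As deposited, 55.4% of FGF8 and 15.2% of BSA fibroblast-like cells had a Prg4 UMI. After each cell was thinned to 2000 UMIs, which left out 118 FGF8 and 51 BSA cells of lower depth, the shares were 26.1% (24.6 to 27.7) and 6.63% (5.47 to 7.96). On the same scale 27.5% of neutrophil-like cells had a Prg4 UMI in FGF8 (median depth 2407 UMIs), 11.6% of macrophage-like cells (9618 UMIs) and 9.19% of erythroid-like cells (6983 UMIs). The FGF8 share over all fibroblast-like cells was thus no higher than that of neutrophil-like cells, and it is not read as a share of cells that express the gene. Subcluster 0 stood above every blood cell type in both libraries, at 52.4% in FGF8 and 25% in BSA. In BSA the blood cell shares were 2.72% in neutrophil-like, 0.962% in macrophage-like and 0% in erythroid-like cells.

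The Prg4 ratio also moved with sex. In female-called fibroblast-like cells the level was 1571 CPM in FGF8 (685 cells) and 276 CPM in BSA (1177 cells), a log2 ratio of 2.51. In male-called cells it was 2243 CPM (2117 cells) and 64.1 CPM (297 cells), a log2 ratio of 5.13. The gap stood within subcluster 0 as well, with 3004 and 1128 CPM in female-called cells and 4385 and 217 CPM in male-called cells, the last from 50 cells. Prg4 was higher in FGF8 in both sexes, and the male-called BSA cells had the lowest level of all. Fibroblast-like cells without a sex call stood at 1564 CPM in FGF8 (478 cells) and 580 CPM in BSA (191 cells), a log2 ratio of 1.43. The single BSA cell with 2134 Prg4 UMIs was female-called, where all female-called BSA cells held 6916, so it weighed on the female ratio. The part of sex in the pooled ratio was not tested beyond these values, and each sex came from an unknown number of the 5 mice.

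Sod3, the extracellular antioxidant enzyme, was higher in FGF8 in subclusters 0, 2 and 3. In subcluster 0 it stood at 117 CPM in FGF8 and 72.4 CPM in BSA (log2 ratio 0.69, 0.56 to 0.82), in subcluster 2 at 81.9 and 48.7 CPM (0.75, 0.58 to 0.92), and in subcluster 3 at 64.7 and 33.3 CPM (0.96, 0.73 to 1.20). Subcluster 1 was lower in level, with 26.9 and 11.2 CPM, and its ratio was 1.26 (0.93 to 1.60). Blood cells carried some Sod3 as well. It was higher in FGF8 in neutrophil-like cells (16.7 and 1.64 CPM, from 28 and 1 UMIs) and macrophage-like cells (4.90 and 1.38 CPM, from 50 and 8 UMIs). Erythroid-like cells held 4.54 and 4.15 CPM, from 21 and 6 UMIs (0.13, -1.23 to 1.73). The level of subcluster 1 lay close to that of FGF8 neutrophil-like cells, and its ratio is given as a value only. Subcluster 5 had 5.29 and 3.38 CPM, from 17 and 10 UMIs (0.65, -0.56 to 1.94), a level near that of blood cells. Subcluster 4, of low depth, had 36.8 and 37.3 CPM (-0.02, -0.71 to 0.71). Both sexes showed the difference, with a log2 ratio of 1.33 for the female and 1.05 for the male cells. Outside the fibroblast-like cells, Schwann-like cells, the glia of peripheral nerves, held Sod3 at 38.2 CPM in FGF8 and 36.2 CPM in BSA (0.08, -0.35 to 0.51), a level at which the libraries did not differ beyond counting error. Chondrocyte-like cells had 65.7 CPM (208 UMIs, 135 cells) and 5.60 CPM (9 UMIs, 55 cells), a log2 ratio of 3.55 (2.60 to 4.70).

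Among the subclusters Anxa8 was highest in subcluster 0, as Prg4 was, but its direction there was the opposite. Over all fibroblast-like cells its level was nearly equal in the libraries, yet in subcluster 0 it was 197 CPM in FGF8 and 320 CPM in BSA, a log2 ratio of -0.70 (-0.76 to -0.63). In subcluster 2 it was 184 and 163 CPM (0.18, 0.07 to 0.28), in subcluster 3 it was 52.6 and 37.0 CPM (0.51, 0.28 to 0.74), and in subcluster 5 it was 72.2 and 48.3 CPM (0.58, 0.27 to 0.89). So subcluster 0 alone had less Anxa8 in FGF8 than in BSA beyond counting error. Subcluster 1 had 7.39 and 4.86 CPM, below the erythroid-like level of 11.2 and 26.3 CPM and, in FGF8, the neutrophil-like level of 36.4 CPM, and is read as background. The lower FGF8 value in subcluster 0 was seen in female-called cells, with 210 and 352 CPM (log2 ratio -0.74), but not in male-called cells, with 197 and 181 CPM (0.12, -0.04 to 0.29). Anxa8 was also found in chondrocyte-like cells, at 252 CPM in FGF8 and 165 CPM in BSA (0.61, 0.41 to 0.82), and in cells called keratinocytes one by one within an unnamed cluster, at 137 and 133 CPM.

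**Figure D3:**
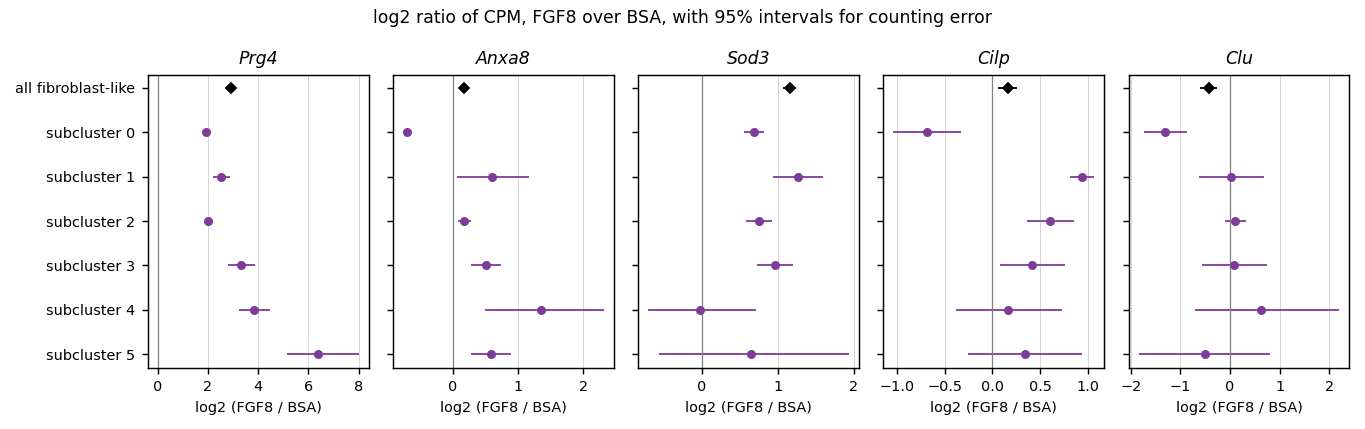
log2 ratio of CPM in FGF8 over BSA for each gene, over all fibroblast-like cells (diamonds) and in subclusters 0 to 5 (circles), with 95% intervals for counting error. Subcluster 6 is left out because it held 48 FGF8 and 21 BSA cells. Anxa8, Cilp and Clu lie below 0 in subcluster 0, where Prg4 and Sod3 lie above 0.

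Cilp, the matrix glycoprotein, marked other cells than Prg4 did. Its highest level was in subcluster 1, led by Chodl, Ahrr and Zfp536, with 146 CPM in FGF8 and 76.6 CPM in BSA (log2 ratio 0.93, 0.81 to 1.06). That subcluster held 56.9% of the Cilp UMIs of kept FGF8 cells and 56.8% of those in BSA, nearly the same share. It made up a smaller part of the fibroblast-like cells in FGF8 (21.8%) than in BSA (29.2%). Subcluster 2 had 38.4 and 25.3 CPM (0.60, 0.36 to 0.85), and subcluster 3 had 24.1 and 18.1 CPM (0.42, 0.08 to 0.76). In subcluster 0 the order turned, with 7.29 CPM in FGF8 and 11.7 CPM in BSA (-0.69, -1.04 to -0.33), from 246 and 93 UMIs. Blood cells held Cilp at 4.17 and 1.64 CPM (neutrophil-like), 4.11 and 1.90 CPM (macrophage-like) and 2.59 and 2.07 CPM (erythroid-like), so the values of subcluster 0 lay not far above background.

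Clu, the secreted chaperone, was the sparsest of these genes in fibroblast-like cells, with 706 UMIs in FGF8 and 481 in BSA. It was concentrated in subcluster 2, at 41.6 CPM in FGF8 and 38.7 CPM in BSA, where the libraries did not differ beyond counting error (log2 ratio 0.10, -0.11 to 0.32). In subcluster 0 it stood at 3.61 and 8.94 CPM (-1.31, -1.74 to -0.86), from 122 and 71 UMIs, where neutrophil-like cells held 2.98 and 1.64 CPM, so the FGF8 value lay close to background. Among the other cell types, chondrocyte-like and keratinocyte-called cells had more Clu than fibroblast-like cells as a whole. Chondrocyte-like cells stood at 27.1 CPM (FGF8) against 87.7 CPM (BSA) (-1.69, -2.10 to -1.29), and keratinocyte-called cells had 44.2 and 106 CPM (-1.26, -1.56 to -0.95). Both of these values were lower in FGF8, as the fibroblast-like total was, but that total changed direction with the processing. Its log2 ratio was -0.61 for the female and 0.36 (-0.04 to 0.79) for the male cells, and 0.16 after thinning to 2000 UMIs per cell.

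**Figure D4:**
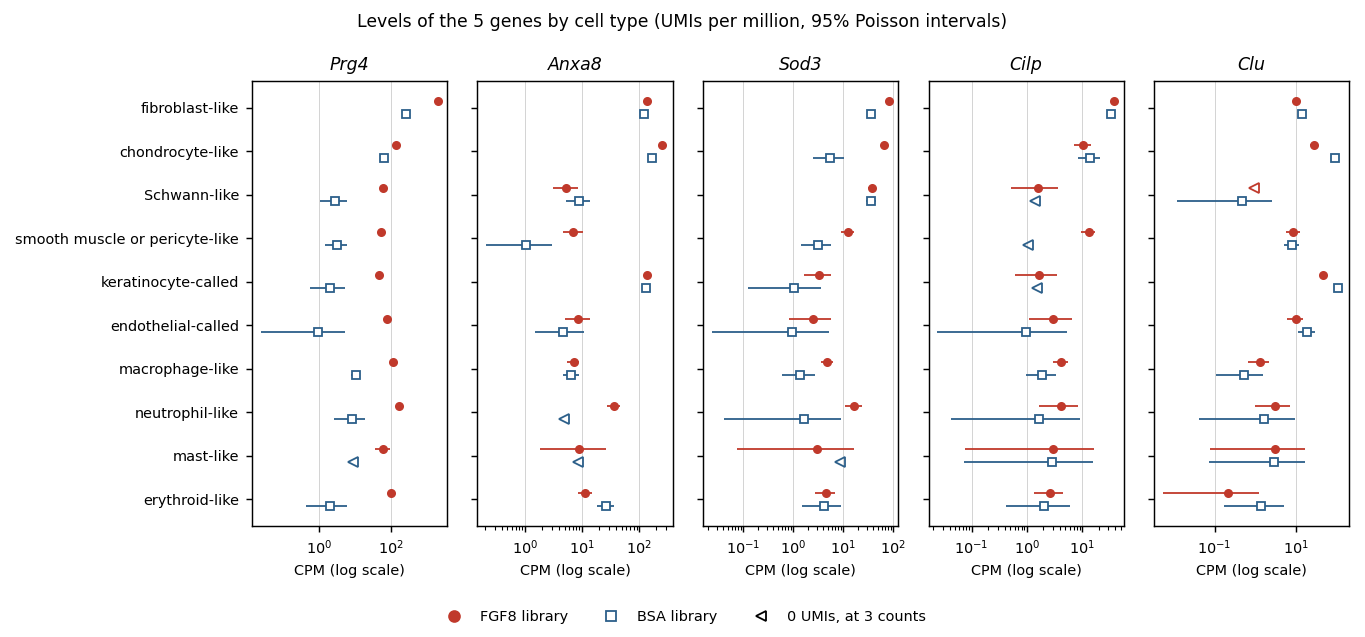
Level of each gene (CPM, log scale) by cell type for the FGF8 library (filled circles) and the BSA library (open squares), with 95% Poisson intervals, and with arrowheads at the level of 3 counts where no UMI was found. Keratinocyte-called and endothelial-called cells come from the unnamed cluster. Prg4 is raised in FGF8 in every cell type drawn, blood cells included, while Clu is highest in the BSA chondrocyte-like and keratinocyte-called cells.

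The shares of the subclusters and the levels inside them contributed differently to each gene. When the FGF8 levels of each subcluster were weighted by the BSA distribution of UMIs over subclusters, the Prg4 log2 ratio was 1.96 in place of 2.93. Weighting the BSA levels by the FGF8 distribution gave 1.00. For Sod3 the same values were 0.79 (levels) and 0.42 (shares). For Cilp they went opposite ways, 0.72 with levels and -0.38 with shares, where the total was 0.16. Anxa8 showed the reverse pattern, with -0.21 from levels and 0.63 from shares behind its total of 0.17. In Clu both were small, at -0.05 and -0.17. The values for levels and for shares do not add up to the totals.

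Cells that held lubricin more often held Anxa8 and Sod3 than cells that did not, in both libraries. After thinning to 2000 UMIs, Anxa8 was detected in 29.5% of the 825 FGF8 cells with a Prg4 UMI and in 9.84% of the 2337 cells without one. In BSA it was detected in 40.2% of 107 cells (30.8 to 50.1) and in 8.69% of 1507 cells (7.32 to 10.2). Of the cells with Anxa8, 51.4% held Prg4 in FGF8 and 24.7% in BSA. Sod3 was detected in 19.6% and 7.70% in FGF8, and in 12.1% and 4.31% in BSA. Cilp was detected in 5.45% and 6.97% in FGF8, a difference of -1.52 points whose interval (-3.38 to 0.34) included 0. In BSA it was detected in 0.935% and 4.98%, where 1 cell held both, but that difference of -4.04 points was -1.30 at 5000 UMIs and turned to 2.12 as deposited. Clu was detected in 2.55% and 1.88% in FGF8 and in 2.80% and 2.12% in BSA, where the difference was 9.68 points as deposited. Within subcluster 0 the pairs stayed apart in the same order: Anxa8 was found in 37.3% of cells with Prg4 and 17.2% without it in FGF8, and in 50.8% and 25.9% in BSA. Sod3 in subcluster 0 was found in 24.5% and 11.5% in FGF8, and in 15.9% (7.88 to 27.3) and 8.99% (5.33 to 14) in BSA, where the intervals overlap. In subcluster 2 Cilp was found in 12.9% of 124 FGF8 cells with Prg4 (7.56 to 20.1) and in 3.89% of those without (2.14 to 6.44), the reverse of its order over all cells. In BSA none of the 35 subcluster 2 cells with Prg4 held Cilp, with an exact upper bound of 10.0%. In subcluster 1, where the Prg4 of FGF8 cells is read as background, the intervals for Cilp overlapped. No thinned cell held all 5 genes, and 2.85% of FGF8 and 0.620% of BSA cells held 3 or more.

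Grouping fibroblast-like cells by their Prg4 level gave a graded picture. From cells without Prg4 to cells with over 100 Prg4 UMIs per 10000, Anxa8 went from 66.0 to 397 CPM in FGF8 and from 71.6 to 1183 CPM in BSA, the last from 4 cells. Sod3 went from 53.0 to 163 CPM in FGF8 and from 27.8 to 253 CPM in BSA. At matched Prg4 levels of 10 to 100 per 10000, Anxa8 was 246 CPM in FGF8 and 479 CPM in BSA, while Sod3 was 138 and 121 CPM. Cilp stayed between 46.4 and 47.9 CPM in the 3 lowest FGF8 groups and was 10.6 and 2.88 CPM in the 2 highest. The 133 FGF8 cells of the highest group, 4.05% of the fibroblast-like cells, held 62.1% of the Prg4 UMIs, and 96.2% of them lay in subcluster 0. Cells with more Prg4 were also deeper, with median UMI counts of 14722 in FGF8 cells without Prg4 and 34385 in the highest group, and the part of depth in these trends was not tested beyond the thinned shares above.

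**Figure D5:**
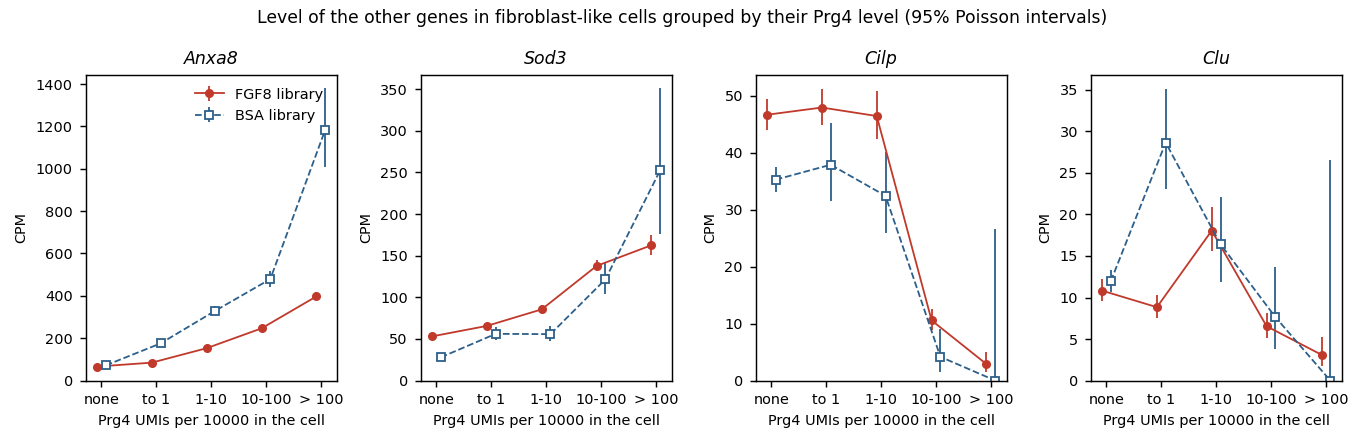
Level (CPM, vertical axis) of Anxa8, Sod3, Cilp and Clu in fibroblast-like cells grouped by their Prg4 UMIs per 10000 UMIs (horizontal axis), for the FGF8 library (filled circles, solid line) and the BSA library (open squares, dashed line), with 95% Poisson intervals. Anxa8 and Sod3 are higher in the groups with more Prg4 and Cilp is lower in the 2 highest groups, of which the highest in BSA holds 4 cells.

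Across single cells of one library, the correlations of log2(1 + UMIs per 10000) had the same order. In the 3280 FGF8 and 1665 BSA fibroblast-like cells, Pearson's r was 0.47 and 0.44 between Prg4 and Anxa8, 0.36 and 0.27 between Prg4 and Sod3, and 0.41 and 0.38 between Anxa8 and Sod3. With Prg4, Cilp had -0.11 and -0.04 and Clu had -0.02 and 0.04, values too weak to be read in counts this sparse. The cells of a library share its free RNA, and depth differed among them: r with log2 depth in FGF8 was 0.23 for Prg4, 0.33 for Anxa8 and 0.35 for Sod3. The genes most like Prg4 in FGF8 cells, among the 11833 genes found in at least 5% of them, were Enpp1 (0.56), which makes pyrophosphate, the metalloproteinase inhibitor Timp1 (0.54), Cda (0.52), the chromatin protein gene Hmga2 (0.51) and Tm4sf1 (0.51). In BSA cells the same genes had r of 0.42, 0.33, 0.34, 0.25 and 0.25, and the gene most like Prg4 there was Anxa8.

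The neighbours of the other genes set them apart from each other. Anxa8 was most like Fxyd5 (r = 0.54 in FGF8 and 0.58 in BSA), the glycolytic enzyme genes Pkm (0.53 and 0.52) and Eno1 (0.50 and 0.50), Tspo (0.49 and 0.51) and Timp1 (0.49 and 0.53). Sod3 was most like Timp1 (0.49 and 0.34), the metallothionein genes Mt2 (0.45 and 0.29) and Mt1 (0.45 and 0.32), Pkm (0.43 and 0.26) and Tm4sf1 (0.42 and 0.28). Cilp was most like C1qtnf3 (0.48 and 0.41), the elastic fibre genes Eln (0.40 and 0.30) and Mfap4 (0.39 and 0.28), the collagen gene Col14a1 (0.38 and 0.28) and Podn (0.34 and 0.18). Clu was most like the cartilage and tendon matrix genes Comp (0.35 and 0.26), Mgp (0.31 and 0.22) and Fmod (0.27 and 0.22), with Igf1 (0.25 and 0.19) and Ptgis (0.25 and 0.24). Over 14 cell types and subclusters in both libraries, 28 points, the 5 genes most like Prg4 of 15772 were the matrix metalloproteinase gene Mmp3 (r = 0.87), Tnfsf11, which encodes RANKL (0.84), Spp1, which encodes osteopontin (0.80), Timp1 (0.77) and Enpp1 (0.77). By that measure Anxa8 ranked 27, Sod3 39, Cilp 681 and Clu 2658. The points pool both libraries and include the blood cell types, whose Prg4 was higher in FGF8. The part of this library difference in these correlations and ranks was not tested. By level, the label of joint lining genes did not describe 1 shared population. Among the subclusters, Prg4, Anxa8 and Sod3 were highest in subcluster 0, Cilp in subcluster 1 and Clu in subcluster 2.

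Genes known from the same structures differed in both directions. Of 8 genes of the synovial lining, 2 had a log2 ratio above 1 and 1 had one below -1, with a median of -0.51, where 6.58% and 5.08% of all genes lay past these limits and the median was -0.07. Hbegf, an EGF receptor ligand, was 118 CPM in FGF8 and 36.7 CPM in BSA (1.69), and the hyaluronan synthase gene Has1 was 72.3 and 30.5 CPM (1.25). Htra4 was 0.959 and 2.29 CPM (-1.25), while Cd55, a lining marker that limits complement, was 54.8 and 109 CPM (-0.99), Vcam1 110 and 116 CPM (-0.08) and Clic5 5.05 and 8.40 CPM (-0.73). Of 8 genes of the superficial zone of articular cartilage, 2 were above 1 and 1 below -1, with a median of -0.68. Thbs4, which encodes a thrombospondin, was 451 and 177 CPM (1.35), Cytl1 0.301 and 0.0848 CPM (1.83, 0.08 to 4.21, from 21 and 3 UMIs), and Cilp2, the paralog of Cilp, 2.79 and 8.23 CPM (-1.56). Abi3bp (184 and 274 CPM), Dkk3 (84.2 and 145 CPM), Erg (21.9 and 40.9 CPM) and Gdf5 (58 and 53 UMIs), a growth factor gene of the joint interzone, had ratios between -0.58 and -0.90.

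None of 6 genes known to regulate Prg4 lay past a log2 ratio of 1 in either direction, and their median was -0.18. With 6.58% of all genes above 1 and 5.08% below -1, counts this small are given for these genes, the paralogs and the partners as values only. Creb5, a transcription factor of superficial chondrocytes, was 111 CPM in FGF8 and 153 CPM in BSA (-0.47), and Tgfbr2, a TGF-β receptor gene, was 138 and 199 CPM (-0.52). The transcription factor genes Foxo1 (46.8 and 44.2 CPM) and Foxo3 (46.3 and 42.5 CPM) had ratios of 0.08 and 0.12. Of 16 paralogs, 14 had at least 10 UMIs, and their median log2 ratio was -0.12. Among them the annexin gene Anxa3 was above 1, at 29.7 and 14.2 CPM (1.06), and Cilp2 and Vtn were below -1, the latter at 0.129 and 0.622 CPM (-2.27) from 9 and 22 UMIs. The other superoxide dismutase genes were 132 and 72.5 CPM for Sod2 (0.87) and 68.5 and 74.6 CPM for Sod1 (-0.12). Of 12 partners and receptors 11 had at least 10 UMIs, with a median of 0.02, and 1 was above 1 and none below -1: Lrp8, a receptor gene that clusterin can bind, was 8.33 and 3.17 CPM (1.40). Cd44, which encodes a hyaluronan receptor that also binds lubricin, was 225 and 147 CPM (0.62), and Vldlr was 13.8 and 8.31 CPM (0.73). S100a10 (-0.14) and Cd63 (-0.07) differed by less than 0.2.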

How the data were processed

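Single cells of 1 FGF8 and 1 BSA library were captured by the authors with 10x 3′ chemistry. The deposited values are counts, raw UMIs per gene and barcode, made with Cell Ranger 9.0.0; the submitters' processing notes name the builds GRCm39 and mm10, and the gene identifiers were placed with GENCODE on GRCm39. The deposited counts still held barcodes that the described filters would remove. Kept cells had more than 200 and fewer than 7500 genes, with mitochondrial UMIs below 15%. They were clustered as the methods name (Seurat 5.3.0, sctransform 0.4.2, R 4.3.3, SCTransform, CCA integration, 30 components, resolution 0.05), and fibroblast-like cells were clustered again at 0.2 on 2645 of 3000 variable features. Clusters were named from marker lists. The number of fibroblast-like cells depended on the merge order and features of the clustering, and the version used was chosen after its cluster make-up was seen. Scrublet (scanpy 1.11.5) called 0 cells as doublets in either library at its automatic score thresholds (0.583 in FGF8 and 0.485 in BSA). This does not show that doublets were absent, and doublets were not removed.

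For each library and each cell type the UMIs were added up in Python 3.11.15 (numpy 2.4.6, scipy 1.17.1, pandas 2.3.3; figures with matplotlib 3.10.9), scaled to CPM and compared as log2 ratios with exact conditional intervals. Levels have exact Poisson and shares exact Clopper-Pearson intervals, all at 95% and for counting error only. A count of 0 allows up to 3 counts. Cells were called female with Xist and no Y-linked UMI, and male the other way. Thinning, co-detection and ratio steps were tested on simulated data. No test across samples was possible with 1 library per treatment. The 5 genes and the gene lists were chosen with earlier results of these data known. Named genes are the 5 genes, listed genes past a log2 ratio of 1 with up to 4 others per list, and the 5 genes most like each by correlation. Alternatives covered thinning, cell filters, sex, weighting, centring, clusters, types called per cell, Seurat's fold and high Scrublet scores; 4 more were chosen after seeing the data.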

Additional observations from a re-analysis of the deposited data

Results flagged for a closer look

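Opposite directions of 1 gene in different cells marked several results; none of these differences was tested, since each treatment has 1 library. The Cilp log2 ratio (FGF8 over BSA) was 0.93 in subcluster 1 and -0.69 in subcluster 0 of the fibroblast-like cells. The Anxa8 log2 ratio was -0.70 in subcluster 0 and 1.35 in subcluster 4, the latter from 86 and 13 UMIs in cells of low depth. By cell type, the Anxa8 log2 ratio was 2.78 in smooth muscle or pericyte-like cells, from 26 and 3 UMIs, and -1.22 in erythroid-like cells, from 52 and 38 UMIs. Both lie at or below the level read as background for Anxa8, so no direction is read from them.

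Barcodes outside the comparisons also held lubricin. The 274 FGF8 barcodes left out for 7500 genes or more had a median of 67796.5 UMIs and held 34091 Prg4 UMIs, a level of 1609 CPM. The 161 such BSA barcodes held 2666 Prg4 UMIs, a level of 218 CPM. Whether these barcodes are large cells or pairs of cells was not tested.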

How the results depend on the processing

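Log2 ratios (FGF8 over BSA) of Prg4, Anxa8, Cilp and Sod3 in fibroblast-like cells stayed above 0 under every alternative run, while that of Clu did not; the causes were not tested. Prg4 (2.93) was 2.97 after thinning to 2000 UMIs, 3.53 under a stricter cell filter (500 to 6000 genes, mitochondrial share under 10%), 2.51 for female-called cells, 5.13 for male-called ones, 2.99 with equal weight of cells, 3.01 centred on the median gene, 2.30 with types called per cell, 2.90 by Seurat's fold, 3.28 without the top cell of each library and 2.88 with fibroblasts, tenocytes and osteoblasts called per cell. Sod3 (1.15) was 0.96 after thinning to 5000 UMIs, 1.26 under the stricter filter, 1.33 (female) and 1.05 (male) by called sex and 1.01 with equal weight. Cilp (0.16) was 0.73 and 0.82 after thinning to 2000 and 5000 UMIs, 0.58 under the stricter filter, 0.68 with equal weight, 0.57 with types called per cell, 0.51 by Seurat's fold and 0.44 with the 3 types called per cell. Anxa8 (0.17) was 0.27 and 0.29 after thinning, 0.56 under the stricter filter, 0.67 in male-called cells, 0.23 with equal weight, 0.24 centred, 0.35 with types called per cell and 0.26 by Seurat's fold. Clu (-0.43) turned to 0.16 after thinning to 2000 UMIs, 0.058 under the stricter filter and 0.36 in male-called cells. It was -0.030 after thinning to 5000, -0.61 in female-called cells, -0.10 with equal weight, -0.12 with types called per cell, -0.18 by Seurat's fold, -0.62 with the unnamed cluster added and -0.13 with the 3 types called per cell.

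The share of cells with a Prg4 UMI (26.1% in FGF8 and 6.63% in BSA) was 55.4% and 15.2% as deposited, 35.1% and 9.77% after thinning to 5000 UMIs, 21.2% and 4.91% under the stricter filter, and 8.59% in BSA for 3 UMIs or more. The difference in detection between cells with and without Prg4, in percentage points, was in FGF8 -3.56 (Cilp), 28.6 (Anxa8), 17.2 (Sod3) and 2.08 (Clu) after thinning to 5000 UMIs, and 31.1 (Anxa8), 25.8 (Sod3) and 2.05 (Clu) as deposited. In BSA it was -1.30 (Cilp) and 42.3 (Anxa8) at 5000 UMIs, and 50.5 (Anxa8), 30.8 (Sod3) and 9.68 (Clu) as deposited, where Cilp turned from -4.04 to 2.12. Of genes with at least 10 UMIs, 1319 had a log2 ratio above 1 and 1018 below -1; with at least 100 UMIs these were 465 and 324, and with at least 1 UMI 3217 were below -1. The unnamed cluster, the top cell, the 3 types called per cell and the variable features passed to the integration, which changed no direction, were chosen after seeing the data.

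No paired analysis was possible because each treatment has 1 library. Animals were pooled, so no spread between mice can be given, and the sexes were unequal between the libraries. The Prg4 found in blood cells limits what low Prg4 counts show in the FGF8 library, and few BSA cells held much Prg4.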
